A study of Homo sapiens with 18 samples.

Results

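The mitochondrial respiratory chain subunits described here are nuclear-encoded proteins of complexes I to IV. The list held 46 genes, and each gene was read from the probe set that the platform's gene table assigns to it alone and that had the highest mean over all arrays. In this way 41 of the 46 genes were measured, among 11193 genes tested in all: 23 of 25 subunits of complex I, 3 of 4 of complex II, 5 of 7 of complex III and 10 of 10 of complex IV. The probe sets of NDUFS5, NDUFS8 and UQCRH carry several gene symbols, and SDHB and UQCRFS1 were not analysed here.

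The RNA came from MDA-MB-231 cells, an established human breast cancer line, kept for 16 hours in medium without serum, and gene expression was read on Affymetrix arrays of the HG-U133 Plus 2.0 design, to compare it under hypoxia and 2 anticancer drugs. The 6 conditions were epirubicin (10 µM) under hypoxia (H epi) and normoxia (N epi), paclitaxel (50 µM) under hypoxia (H tax) and normoxia (N tax), and no drug under hypoxia (H) and normoxia (N). Hypoxia was 1% oxygen and normoxia was the normal atmosphere. Paclitaxel stabilizes microtubules, and epirubicin is an anthracycline that intercalates into DNA and blocks topoisomerase II. The study also describes inhibition of DNA and RNA synthesis by epirubicin. Signals were normalized between arrays, so rises and falls here are relative to the other transcripts and not amounts per cell. Of 18 arrays, 12 were used, 2 per condition. The other 6 carry a title and a source name that name different drug treatments, so they were placed in no condition. Placed by their titles, they raised the number of members called in each of the 4 drug comparisons below, to 39 in H epi against H, 39 in N epi against N, 18 in H tax against H and 19 in N tax against N. Over all 11193 genes the calls in both directions rose as well. Genes higher went from 3306 to 3993 in H epi against H and from 2705 to 3575 in N epi against N. Genes lower went from 2030 to 2552 in H tax against H and from 1680 to 2626 in N tax against N. Placed by their source names, the 6 arrays left 0 members and 0 of all genes called in any of the 7 comparisons of conditions. The p-values rest on the spread between arrays of the same condition, pooled for each gene over all 6 conditions. The study's methods call the arrays of a condition biological replicates.

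Complex I takes electrons from NADH and complex II takes them from succinate, both complexes pass them to ubiquinone, complex III carries them on to cytochrome c, and complex IV, cytochrome c oxidase, hands them to oxygen. All but complex II hold both subunits made from mitochondrial DNA and subunits made from nuclear genes, and the nuclear-encoded ones, studied here, are imported from the cytosol. Many of their promoters are known to bind the nuclear respiratory factor NRF1, the ETS family factor GABP or YY1. In other cells hypoxia is known to exchange or lower some subunits, with COX4I2 taking the place of COX4I1 and the protease LONP1 degrading COX4I1.

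The promoters of 4 subunits are shown because NDUFA9 had the largest fall with paclitaxel, NDUFB7 and NDUFS1 the largest rises with epirubicin, and SDHA fell with epirubicin. They are the 250 bases before the start site in RefSeq (GRCh38.p14), read 5′ to 3′ on the gene's strand, and capitals mark the 9 letters CGCNTGCGC of the NRF1 motif or the 7 letters CCGGAAG of the ETS motif on either strand. NDUFA9 lies at chr12:4648864-4649113 on the plus strand, NDUFB7 at chr19:14572067-14572316 on the minus strand, NDUFS1 at chr2:206159445-206159694 on the minus strand and SDHA at chr5:218070-218319 on the plus strand.
NDUFA9: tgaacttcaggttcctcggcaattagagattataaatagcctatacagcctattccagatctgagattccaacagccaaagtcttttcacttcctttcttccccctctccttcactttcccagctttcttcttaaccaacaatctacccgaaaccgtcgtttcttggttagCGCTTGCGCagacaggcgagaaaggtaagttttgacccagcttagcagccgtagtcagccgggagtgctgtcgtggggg
NDUFB7: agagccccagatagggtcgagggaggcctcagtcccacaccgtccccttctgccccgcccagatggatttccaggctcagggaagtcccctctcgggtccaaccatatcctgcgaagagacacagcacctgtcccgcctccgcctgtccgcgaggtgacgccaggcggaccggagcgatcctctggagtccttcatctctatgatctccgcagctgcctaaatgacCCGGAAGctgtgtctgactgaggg
NDUFS1: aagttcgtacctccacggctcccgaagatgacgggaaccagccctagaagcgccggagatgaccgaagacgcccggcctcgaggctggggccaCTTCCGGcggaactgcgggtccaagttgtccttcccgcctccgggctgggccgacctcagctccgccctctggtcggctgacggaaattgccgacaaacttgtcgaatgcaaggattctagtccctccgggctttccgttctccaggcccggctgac
SDHA: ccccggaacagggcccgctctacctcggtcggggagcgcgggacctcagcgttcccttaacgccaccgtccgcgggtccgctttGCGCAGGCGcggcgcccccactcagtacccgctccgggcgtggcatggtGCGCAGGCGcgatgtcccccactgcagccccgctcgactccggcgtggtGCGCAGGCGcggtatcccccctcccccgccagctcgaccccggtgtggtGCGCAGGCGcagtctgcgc

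NDUFA9 held 1 NRF1 match, NDUFB7 and NDUFS1 held 1 ETS match each, and SDHA held 4 NRF1 matches, which began at positions -166, -117, -68 and -19 from the start site. Of the 41 measured members, 36 matched a RefSeq promoter by symbol. Over the whole window, from 250 bases before to 50 bases after the start, 9 of the 36 (25%) held the NRF1 motif, against 7.52% of all 35116 promoters. The ETS motif stood in 11 (30.6%), against 10.3% of all promoters, and the YY1 motif AAGATGGCG in 5 (13.9%), against 1.75%. The hypoxia response core ACGTG stood in 7 (19.4%), against 21.4% of all promoters. The 5 YY1 matches all began after the start site, at positions 11 to 26. In the 250 bases before it, 0 of the 36 members held the YY1 motif, against 0.652% of all promoters. Both strands were searched, NRF1 matches on opposite strands can overlap each other, and a match is a run of letters and not a bound site. Each member counted with 1 promoter, whereas the 35116 were not limited to genes measured or expressed here, so the shares come from unlike sets.

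All 41 members lay above the presence threshold, the signal above which the study took a probe set as expressed, on all 12 arrays. Replicate arrays correlated at 0.9893 (N epi) to 0.9986 (N) over all probe sets. The members differed between replicates by a median of 0.07 (N) to 0.16 (H tax) on the log2 scale, against 0.11 to 0.22 for all genes. The cells carried 9 of the 9 measured MDA-MB-231 markers on every array, with 6 or 7 of 10 luminal breast, 3 or 4 of 9 hepatoma and 2 of 8 keratinocyte markers present. Of 11 genes known to respond to hypoxia, 10 rose in H against N and 10 in H tax against N tax, whereas 0 rose in H epi against N epi and all 11 fell in H epi against H. For ACTB, the 3′ minus 5′ probe set difference lay between -0.31 and -0.21 on the epirubicin arrays, between 0.07 and 0.32 on the paclitaxel and H arrays and at -0.04 and -0.02 on the N arrays, and its part in the results was not tested.

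Across the 6 conditions the subunits differed by drug, with small differences between oxygen levels. The median member lay 0.46 and 0.40 above the mean of the N arrays on the H epi arrays and 0.40 and 0.39 above it on the N epi arrays, on the log2 scale. It lay at -0.31 and -0.21 on the H tax arrays and at -0.30 and -0.18 on the N tax arrays. On the H arrays it was 0.08 and 0.02, and on the N arrays 0.03 and -0.03. The median of all genes tested stayed between -0.09 and 0.01 on these arrays, so the epirubicin arrays and the paclitaxel arrays lay on opposite sides of it. In bulk RNA a smaller share of cells that express a gene and less RNA per cell cannot be told apart.

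**Figure D1:**
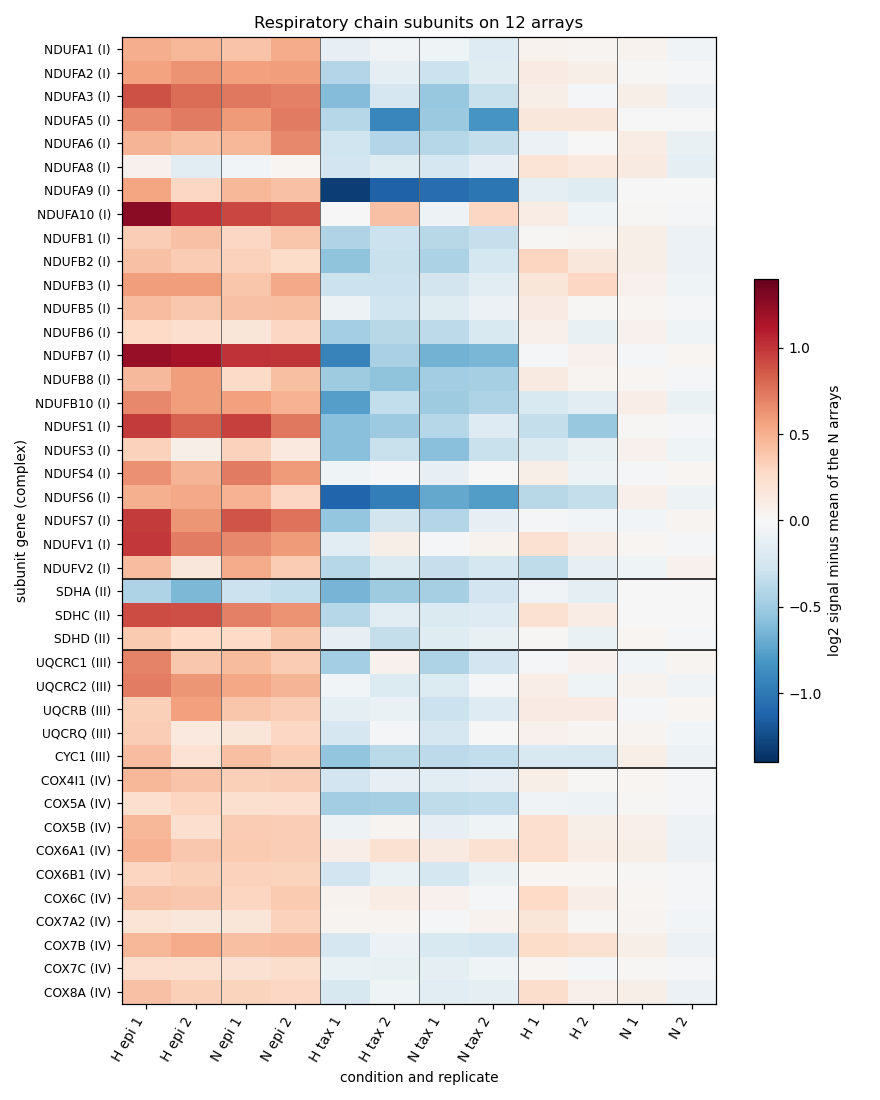
Log2 signal of the 41 subunits (down the page, with the complex in brackets) on the 12 arrays (across, by condition and replicate), as the difference from the mean of the N arrays. The 4 epirubicin arrays are mostly above that mean (red), the 4 paclitaxel arrays mostly below it (blue) and the H arrays near it, while SDHA is below it on all 4 epirubicin arrays.

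**Figure D2:**
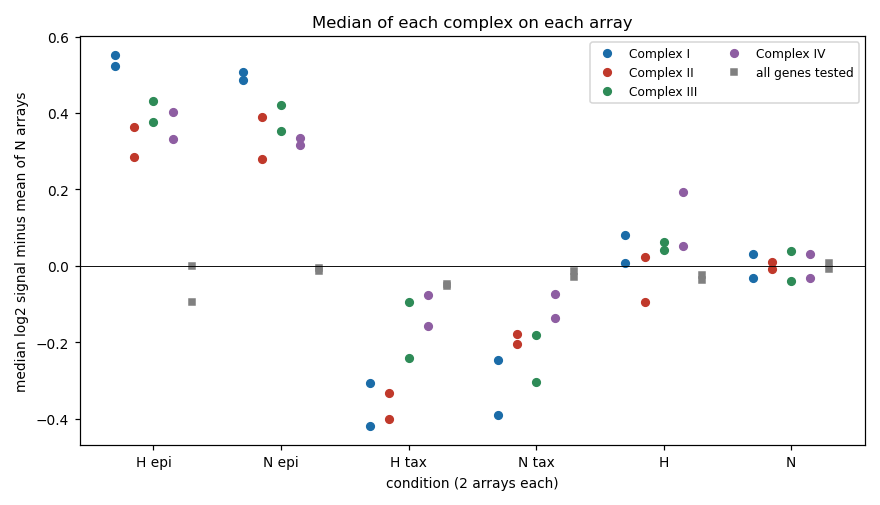
Median over the subunits of each complex (circles) and over all genes tested (squares) on each of the 12 arrays, as the log2 difference from the mean of the N arrays, with 2 points per condition. Complex I lies at 0.49 to 0.55 on the epirubicin arrays and at -0.42 to -0.25 on the paclitaxel arrays, and all genes stay between -0.09 and 0.01.

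Paclitaxel lowered the signal of several complex I subunits under both oxygen levels. In N tax against N, 7 of 41 members (17.1%) fell and 0 rose at an adjusted p under 0.05, close to the 15% of all genes that fell (8.92% rose), and at an unadjusted p under 0.05 the limma fit had 15 lower and 0 higher. In H tax against H, 14 members (34.1%) fell and 0 rose, beside 18.1% of all genes that fell and 13.3% that rose, with 21 lower and 0 higher at an unadjusted p under 0.05. All 7 members that fell under normoxia (100% of that list) were among the 14 that fell under hypoxia (50% of that list). These 2 comparisons share no arrays, but both use the same estimate of each gene's spread, so the 2 lists are not independent. The overlap over all genes was not computed. The median change of the members was -0.23 in N tax against N and -0.29 in H tax against H, against -0.03 and -0.01 for all genes. The count in N tax against N was 2 without N replicate 1, N replicate 2 or N tax replicate 2 and 3 without N tax replicate 1. The count in H tax against H was 8 without H replicate 1 or H tax replicate 1 and 9 without H replicate 2.

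Within complex I, 6 of 23 subunits (26.1%) fell in N tax against N (median -0.29), beside 15% of all genes. In H tax against H, 10 of 23 (43.5%) fell (median -0.38), beside 18.1% of all genes. The largest fall was that of NDUFA9, an accessory subunit at the joint between the matrix arm and the membrane arm. NDUFA9 had 10.55 and 10.74 on the H tax arrays, against 11.73 and 11.70 on the H arrays, and 10.80 and 10.86 on the N tax arrays, against 11.88 and 11.86 on the N arrays. The paclitaxel arrays of NDUFA9 lay below the drug-free arrays without overlap, as did those of 35.9% (hypoxia) and 39% (normoxia) of all genes. The log2 change was -1.06 ± 0.12 (SE, adjusted p = 0.000503) in H tax against H and -1.04 ± 0.12 (adjusted p = 0.000872) in N tax against N, which is 0.478 and 0.486 of the drug-free level. NDUFS6, a zinc-binding accessory subunit of the matrix arm, had 12.41 and 12.56 on the H tax arrays against 13.14 and 13.19 on the H arrays, and 12.81 and 12.74 on the N tax arrays against 13.60 and 13.45 on the N arrays. Its changes of -0.68 (adjusted p = 0.0031) under hypoxia and -0.75 (adjusted p = 0.00285) under normoxia came from arrays that did not overlap, and NDUFA9 and NDUFS6 were the members called in N tax against N whichever array was left out.

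NDUFB7, an accessory subunit on the intermembrane side of the membrane arm, had 8.70 and 9.18 on the H tax arrays, against 9.61 and 9.69 on the H arrays, and 8.97 and 8.99 on the N tax arrays, against 9.61 and 9.66 on the N arrays. It fell by 0.71 under hypoxia (adjusted p = 0.051 without H replicate 2) and by 0.65 under normoxia, where the call was lost without any 1 of its 4 arrays (adjusted p from 0.0657 without N tax replicate 2 to 0.0844 without N replicate 2). Fitted on H tax and H alone, the fall under hypoxia also missed the threshold (adjusted p = 0.0917). NDUFA5, an accessory subunit of the matrix arm, fell by 0.82 under hypoxia and by 0.68 under normoxia. It was not called under hypoxia with H tax and H fitted alone, nor under normoxia without the presence filter. NDUFB8, of the membrane arm, fell by 0.61 under hypoxia and 0.48 under normoxia. NDUFB1, a small subunit of the membrane arm, fell by 0.39 and 0.35. The subunits of complex I that fell under hypoxia and missed the threshold under normoxia were NDUFB2 (-0.67 in H tax against H, -0.35 in N tax against N), NDUFB3 (-0.53 and -0.20), NDUFB6 (-0.42 and -0.29) and NDUFA2 (-0.36 and -0.23). The difference between those effects did not pass the test for any member. NDUFS1, NDUFS3, NDUFS7, NDUFV1 and NDUFV2, which hold the iron-sulfur clusters or the flavin or lie beside them, did not pass it with paclitaxel, with changes between -0.45 (NDUFS3) and 0.02 (NDUFV1) under normoxia and between -0.38 (NDUFS7) and -0.07 (NDUFV2) under hypoxia. NDUFA10 was the 1 subunit of complex I above its control in both comparisons, at 0.18 and 0.10, and neither passed the test.

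The complex II subunits are listed in full. SDHA, the flavoprotein that oxidizes succinate, had 11.67 and 11.82 on the H tax arrays, against 12.27 and 12.19 on the H arrays, a change of -0.49 ± 0.12 (adjusted p = 0.0157). This call was lost without H replicate 1 (adjusted p = 0.0819), H replicate 2 (0.052) or H tax replicate 1 (0.0784). It had 11.85 and 12.05 on the N tax arrays against 12.32 and 12.32 on the N arrays, and that change of -0.37 missed the threshold (adjusted p = 0.0567). SDHC, a membrane anchor that binds haem, had 10.59 and 10.83 on the H tax arrays, against 11.20 and 11.09 on the H arrays (-0.44, adjusted p = 0.0183, and 0.099 without H replicate 1 or 0.0886 without H tax replicate 1). On the N tax arrays it had 10.79 and 10.81, against 11.00 and 10.98 on the N arrays (-0.19, adjusted p = 0.265). SDHD, the other anchor, had 11.43 and 11.21 on the H tax arrays against 11.56 and 11.45 on the H arrays, and 11.37 and 11.44 on the N tax arrays against 11.57 and 11.51 on the N arrays. Its changes of -0.19 and -0.14 did not pass the test.

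In complex III, 0 of 5 subunits passed the test with paclitaxel under either oxygen level, with 0 lower at an unadjusted p under 0.05 in H tax against H and 1 lower, CYC1, in N tax against N. Their changes ran from -0.26 to -0.13 (median -0.22) under hypoxia and from -0.36 to -0.11 (median -0.24) under normoxia, with CYC1, the cytochrome c1 that carries a haem, at the low end in both. In complex IV, 2 of 10 subunits (20%) fell in H tax against H, beside 18.1% of all genes. Under normoxia 1 of 10 (10%) fell in N tax against N, beside 15% of all genes. COX5A, a matrix-side subunit, had 12.73 and 12.75 on the H tax arrays, against 13.17 and 13.14 on the H arrays (-0.42 ± 0.09, adjusted p = 0.00934). It had 12.86 and 12.87 on the N tax arrays, against 13.23 and 13.20 on the N arrays (-0.35, adjusted p = 0.0248). The arrays did not overlap under either oxygen level, as for 35.9% (hypoxia) and 39% (normoxia) of all genes, lower. The call under normoxia was lost without any 1 of its 4 arrays (adjusted p from 0.0825 without N tax replicate 2 to 0.122 without N replicate 1), and with median centring both calls were lost (adjusted p = 0.108 under hypoxia and 0.212 under normoxia). COX7B, a small membrane subunit, fell by 0.40 in H tax against H and was at -0.23 in N tax against N, past no threshold. The median change of complex IV was -0.19 under hypoxia and -0.11 under normoxia, and COX6A1, COX6C and COX7A2 had changes between -0.11 and 0.17 in these comparisons.

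**Figure D3:**
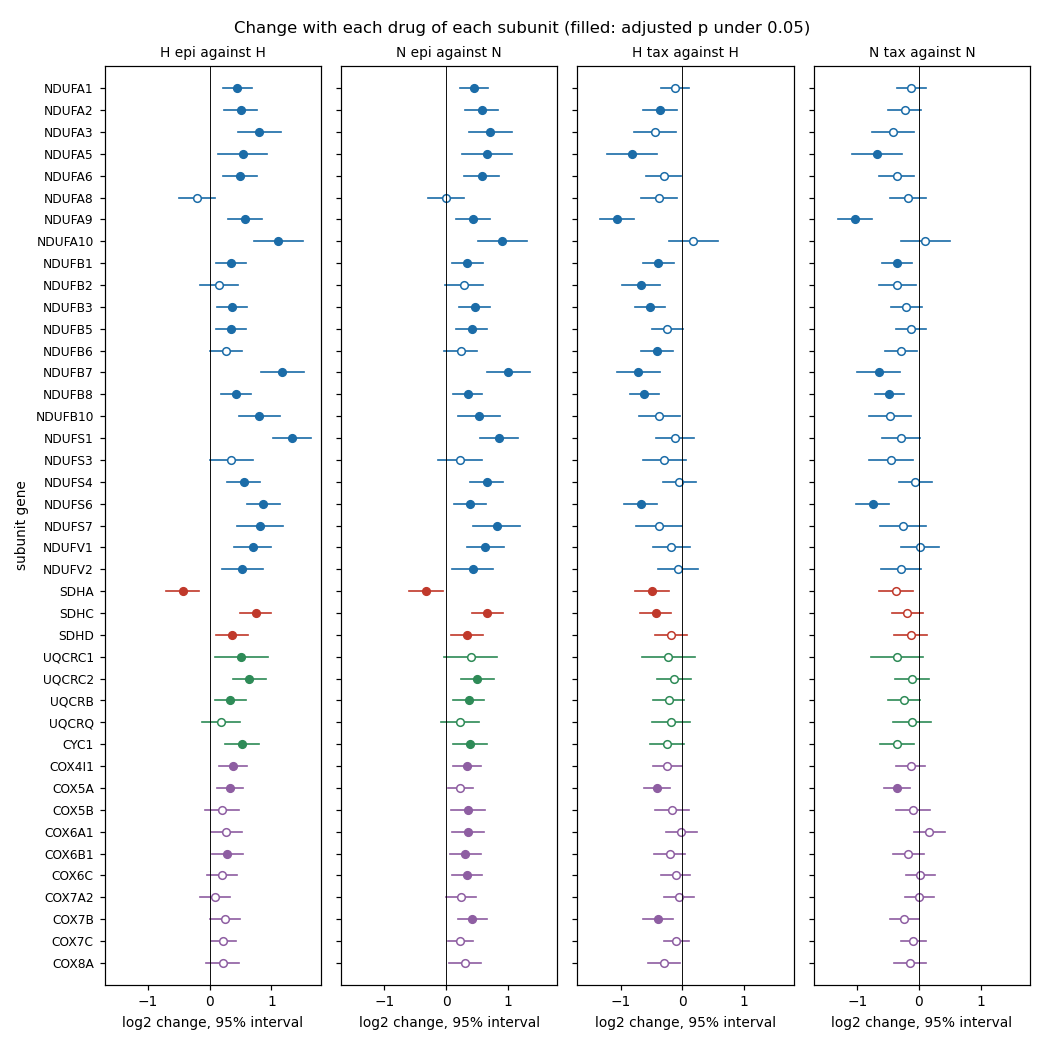
Log2 change with each drug of the 41 subunits (down the page, coloured by complex: I blue, II red, III green, IV purple) with its 95% interval, in 4 comparisons. Filled circles passed an adjusted p under 0.05: 28 higher and 1 lower in H epi against H, 30 higher and 1 lower in N epi against N, 14 lower in H tax against H and 7 lower in N tax against N.

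With epirubicin most subunits of complexes I to III rose under both oxygen levels, and most of complex IV under normoxia. In N epi against N, 30 of 41 members (73.2%) rose and 1 fell, against 24.2% of all genes that rose and 30.8% that fell. In H epi against H, 28 members (68.3%) rose and 1 fell, against 29.5% of all genes that rose and 36.2% that fell. Of the members that rose, 26 did so in both comparisons, 86.7% of the normoxia list and 92.9% of the hypoxia list, and the member that fell was SDHA in both. Here too both lists rest on the same estimate of each gene's spread, and the overlap over all genes was not computed. The median change of the members was 0.39 under normoxia and 0.38 under hypoxia, against -0.01 and -0.03 for all genes, and 39 of 41 members lay above their controls in each. These sizes moved with the scaling: quantile normalization gave medians of 0.23 under normoxia and 0.23 under hypoxia, against 0.10 and 0.12 for all genes, and median centring gave 0.80 and 0.91, against 0.39 and 0.51 for all genes. The upper quartile of the log2 signal was 6.07 to 6.59 on the epirubicin arrays and 6.81 to 6.91 on the others, and its part in the result was not tested. The changes that passed were between 0.80 and 2.01 times the control level under normoxia and between 0.739 and 2.52 times under hypoxia. Quantile normalization left 14 members higher and 1 lower in N epi against N, beside 3378 higher and 3091 lower of all 11193 genes. In H epi against H it left 15 members higher and 2 lower, beside 4195 higher and 3601 lower of all genes. With this scaling the share of members that rose was thus near that of all genes. The count in N epi against N was 20 without N replicate 1, 12 without N replicate 2, 18 without N epi replicate 1 and 19 without N epi replicate 2, all of them higher.

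In complex I, 19 of 23 subunits (82.6%) rose in each comparison, beside 24.2% (normoxia) and 29.5% (hypoxia) of all genes. The medians of complex I were 0.46 under normoxia and 0.53 under hypoxia, against -0.01 and -0.03 for all genes. The dependence of the calls on the scaling, given above for all members, applies here as well. NDUFB7 had 10.86 and 10.80 on the H epi arrays, against 9.61 and 9.69 on the H arrays, and 10.65 and 10.64 on the N epi arrays, against 9.61 and 9.66 on the N arrays. It rose by 1.18 ± 0.15 (adjusted p = 0.00022) under hypoxia and by 1.01 ± 0.15 (adjusted p = 0.000929) under normoxia, the largest rise of the members there. NDUFS1, the core subunit with several iron-sulfur clusters near the NADH site, had 10.77 and 10.62 on the H epi arrays, against 9.46 and 9.26 on the H arrays, the largest rise of the members under hypoxia (1.33 ± 0.13, adjusted p = 6.94e-05). On the N epi arrays NDUFS1 had 10.75 and 10.53, against 9.81 and 9.77 on the N arrays (0.85, adjusted p = 0.00118). The epirubicin arrays lay above the drug-free arrays for both genes with no overlap, as for 38.9% (hypoxia) and 39.3% (normoxia) of all genes.

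NDUFA10, an accessory subunit of the membrane arm, rose by 1.11 under hypoxia and 0.91 under normoxia. Of the core subunits of electron transfer, NDUFS7, which carries the last iron-sulfur cluster before ubiquinone, rose by 0.82 in both, NDUFV1, which binds NADH and the flavin, by 0.70 and 0.64, and NDUFV2 by 0.53 and 0.43, while NDUFS3 passed in neither. NDUFA9 had 12.42 and 12.16 on the H epi arrays, against 11.73 and 11.70 on the H arrays, and 12.33 and 12.28 on the N epi arrays, against 11.88 and 11.86 on the N arrays, rising by 0.58 and 0.43. NDUFS6 rose by 0.87 under hypoxia and 0.39 under normoxia, with 14.02 and 14.05 on the H epi arrays and 14.01 and 13.82 on the N epi arrays. The 4 subunits of complex I that passed the test in neither comparison were NDUFA8 (-0.21 under hypoxia, -0.0018 under normoxia), NDUFB2 (0.15 and 0.29), NDUFB6 (0.26 and 0.24) and NDUFS3 (0.35 and 0.23).

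In complex II the subunits parted. SDHA had 11.89 and 11.69 on the H epi arrays, against 12.27 and 12.19 on the H arrays, a log2 change of -0.44 (adjusted p = 0.0114) that missed it without H replicate 1 (adjusted p = 0.0601) or H epi replicate 2 (adjusted p = 0.0596). It had 12.02 and 11.98 on the N epi arrays, against 12.32 and 12.32 on the N arrays, a log2 change of -0.32 (adjusted p = 0.0492) that missed the threshold without N replicate 1 (adjusted p = 0.145), N replicate 2 (0.142), N epi replicate 1 (0.11) or N epi replicate 2 (0.129), and also without any 1 of the H and H tax arrays (0.0504 to 0.0653). SDHC had 11.90 and 11.89 on the H epi arrays, against 11.20 and 11.09 on the H arrays (0.75 ± 0.11, adjusted p = 0.000477), and 11.70 and 11.62 on the N epi arrays, against 11.00 and 10.98 on the N arrays (0.67, adjusted p = 0.00153). SDHD had 11.91 and 11.82 on the H epi arrays, against 11.56 and 11.45 on the H arrays (0.36, adjusted p = 0.0222), and 11.82 and 11.93 on the N epi arrays, against 11.57 and 11.51 on the N arrays (0.33, adjusted p = 0.0359). The calls of SDHD were lost without H replicate 2 (adjusted p = 0.11) or H epi replicate 1 (0.0806) under hypoxia and without any 1 of the 4 arrays under normoxia (0.0576 without N epi replicate 1 to 0.142 without N replicate 2). SDHA was thus below its controls where both anchors were above theirs. Its probe set has the suffix of sets that may match other genes, SDHA has near-identical pseudogene copies, and centring each array on its median turned its 2 changes to 0.10 and 0.08, so its level is uncertain.

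In complex III, 4 of 5 subunits (80%) rose in H epi against H (median 0.51), beside 29.5% of all genes. Under normoxia 3 of 5 (60%) rose in N epi against N (median 0.39), beside 24.2% of all genes. UQCRC2, a core protein of the matrix side, had 11.85 and 11.75 on the H epi arrays, against 11.23 and 11.08 on the H arrays (0.64 ± 0.12, adjusted p = 0.00153). It had 11.68 and 11.61 on the N epi arrays, against 11.18 and 11.09 on the N arrays (0.51, adjusted p = 0.0075). The arrays did not overlap under either oxygen level, as for 38.9% (hypoxia) and 39.3% (normoxia) of all genes, higher. CYC1 rose by 0.52 and 0.39, and UQCRB, which sits beside the ubiquinone site, by 0.34 and 0.36. UQCRC1, the other core protein, rose by 0.51 under hypoxia and was at 0.40 under normoxia without passing, and UQCRQ was at 0.19 and 0.23 without passing.

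In complex IV, 3 of 10 subunits (30%) rose in H epi against H (median 0.24), near the 29.5% of all genes that rose. Under normoxia 6 of 10 (60%) rose in N epi against N (median 0.33), against 24.2% of all genes. With quantile normalization the median of complex IV in H epi against H was 0.07, below the 0.12 of all genes, and with median centring it was 0.78, above their 0.51. COX4I1, the nuclear subunit that binds ATP, had 14.29 and 14.23 on the H epi arrays, against 13.91 and 13.85 on the H arrays (0.38 ± 0.10, adjusted p = 0.0102). It had 14.16 and 14.18 on the N epi arrays, against 13.86 and 13.80 on the N arrays (0.34, adjusted p = 0.0209). The second of these calls was lost without any 1 of its 4 arrays (adjusted p from 0.0598 without N epi replicate 2 to 0.1 without N replicate 2), and the first without H replicate 2 (adjusted p = 0.0524). COX7B had 13.91 and 13.96 on the H epi arrays, against 13.70 and 13.66 on the H arrays (0.25, adjusted p = 0.0648), and 13.87 and 13.88 on the N epi arrays, against 13.53 and 13.36 on the N arrays (0.43, adjusted p = 0.0093, and 0.0696 without N replicate 2). COX6B1, which faces the intermembrane space, rose in both, by 0.29 and 0.31. COX5A rose under hypoxia alone in this test (0.33, with 0.23 under normoxia), and COX5B, COX6A1 and COX6C passed under normoxia (0.36, 0.36 and 0.34) and not under hypoxia (0.21, 0.27 and 0.20). COX7A2, COX7C and COX8A passed in neither, with changes of 0.08 to 0.30, all above their controls. In both comparisons the 10 subunits of complex IV lay above their controls, and at an unadjusted p under 0.05 the fit had 6 higher under hypoxia and 10 higher under normoxia.

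**Figure D4:**
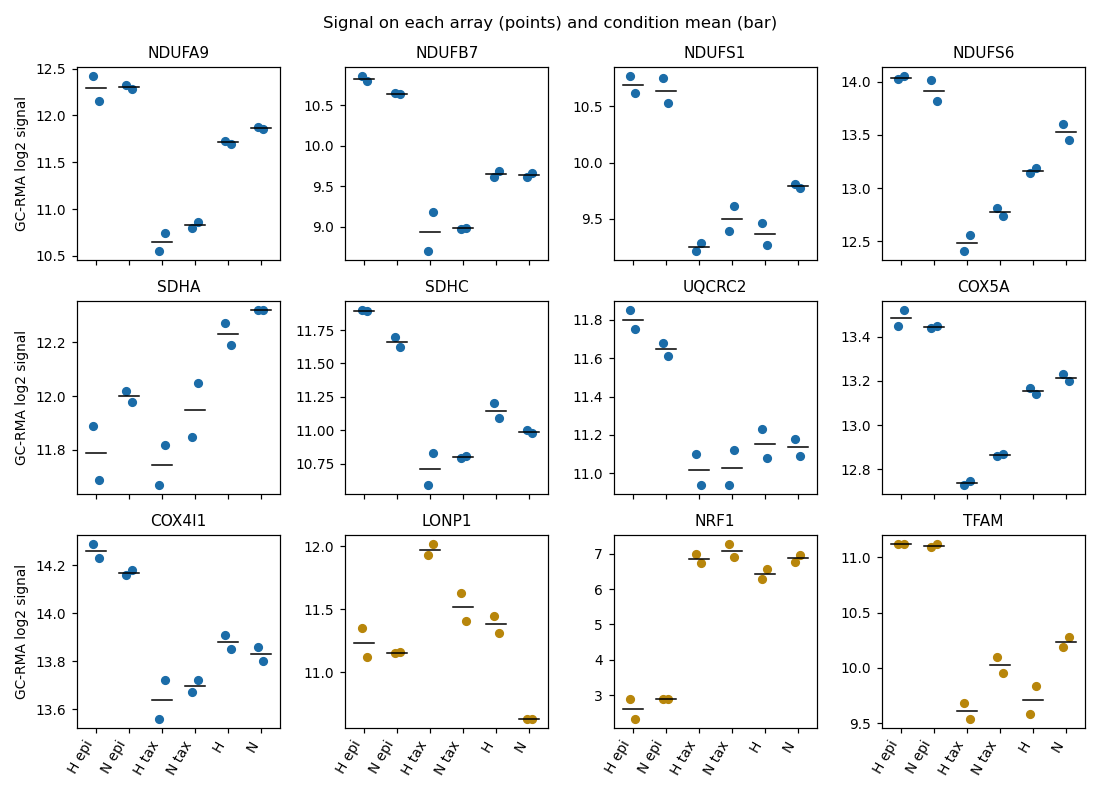
GC-RMA log2 signal of 9 subunits (blue) and 3 nuclear genes that act on mitochondria (gold) on each array, with 2 points per condition and a bar at their mean; each panel has its own axis, which does not start at 0. NDUFA9, NDUFS6 and COX5A are lowest on the paclitaxel arrays, NDUFB7, NDUFS1, SDHC and UQCRC2 are highest on the epirubicin arrays, and NRF1 is near 3 on the epirubicin arrays alone.

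No subunit passed the threshold with hypoxia, with or without drug. In H against N, 0 of 41 members rose and 0 fell with limma (0 higher and 2 lower at an unadjusted p under 0.05), while 4.26% of all genes rose and 5.75% fell. In H tax against N tax, 0 rose and 0 fell (0 higher and 1 lower unadjusted), beside 0.992% and 0.259% of all genes. In H epi against N epi, 0 rose and 0 fell (0 and 0 unadjusted), beside 0.214% and 1.48% of all genes. The median change was 0.03 in H against N, -0.02 in H tax against N tax and 0.04 in H epi against N epi, against -0.03, -0.04 and -0.02 for all genes. The 95% interval lay within a 1.5-fold change in either direction for 39 of 41 members in H against N. It did so for 41 of 41 in H tax against N tax and 40 of 41 in H epi against N epi. A 1.5-fold change is larger than the median member change with either drug. This bound therefore does not exclude hypoxia changes as large as those medians. By complex, the median change in H against N was 0.03 for complex I, -0.03 for complex II, 0.02 for complex III and 0.12 for complex IV.

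The 2 members outside that bound in H against N were NDUFS1 and NDUFS6. NDUFS1 had 9.46 and 9.26 on the H arrays, against 9.81 and 9.77 on the N arrays, a change of -0.43 ± 0.13 with a 95% interval from -0.73 to -0.12 (adjusted p = 0.0871). NDUFS6 had 13.14 and 13.19 on the H arrays, against 13.60 and 13.45 on the N arrays, a change of -0.36 ± 0.11 with an interval from -0.63 to -0.10 (adjusted p = 0.092). Both pairs of arrays lay apart without overlap, as for 37.2% (lower) and 27.1% (higher) of all genes in H against N. Both changes missed the adjusted threshold. With the 6 arrays of conflicting labels placed by title both passed it (-0.50, adjusted p = 0.00238, for NDUFS1 and -0.44, adjusted p = 0.0103, for NDUFS6). COX4I1, the subunit known to be exchanged under hypoxia in other cells, had 13.91 and 13.85 on the H arrays, against 13.86 and 13.80 on the N arrays, a change of 0.05 with an interval from -0.18 to 0.28. Its known replacement COX4I2 had 5.76 and 5.71 on the H arrays, against 5.76 and 5.76 on the N arrays, a change of -0.02. LONP1, the mitochondrial protease, rose by 0.75 (adjusted p = 0.00943), with 11.45 and 11.31 on the H arrays against 10.63 and 10.63 on the N arrays, and missed the threshold without N replicate 1 (adjusted p = 0.0618), N replicate 2 (0.0691) or H replicate 1 (0.0773).

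**Figure D5:**
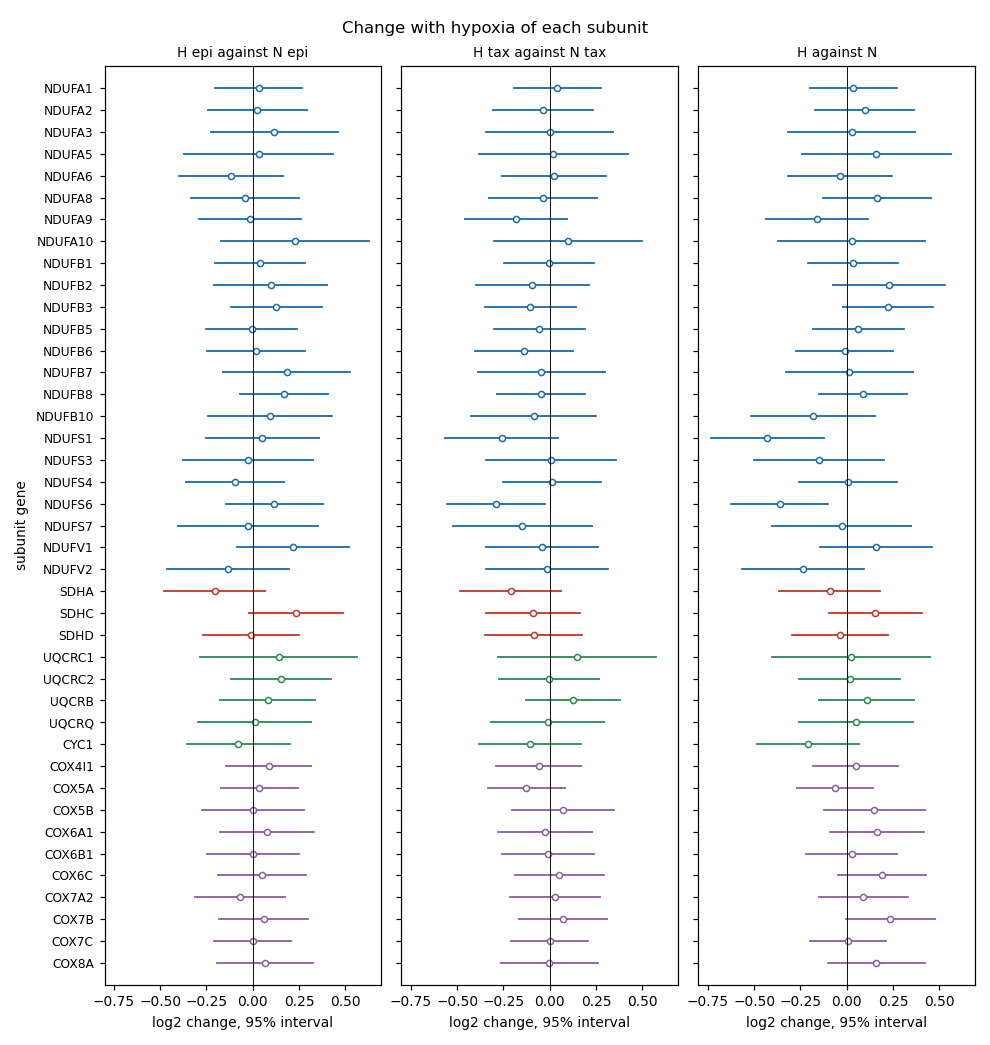
Log2 change with hypoxia of the 41 subunits (down the page, coloured by complex: I blue, II red, III green, IV purple) with its 95% interval, with epirubicin, with paclitaxel and without drug. None passed an adjusted p under 0.05, and the 2 intervals that reach lowest without drug are those of NDUFS1 (to -0.73) and NDUFS6 (to -0.63).

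For no subunit did the difference of the hypoxia effect between drug treatments pass its own test. With paclitaxel against without drug, 0 of 41 members passed (0 at an unadjusted p under 0.05 in either direction), beside 0.0357% of all genes higher and 0.0536% lower. With epirubicin against without drug, 0 passed (2 higher and 0 lower unadjusted), beside 1.56% higher and 2.52% lower. With paclitaxel against with epirubicin, 0 passed (0 higher and 1 lower unadjusted), beside 0.75% and 0.0983%. The largest differences were those of NDUFS1 (0.48 ± 0.19, adjusted p = 0.197) and NDUFS6 (0.48 ± 0.16, adjusted p = 0.144) with epirubicin against without drug, chosen after their values were seen. Both were lower on the H than on the N arrays without drug and level between H epi and N epi, where NDUFS1 had a change of 0.05 and NDUFS6 one of 0.12. Placing those 6 arrays by title brought NDUFS1 past the threshold (0.54, adjusted p = 0.0232).

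Of the measured members, 15 had further probe sets of their own, 28 in all that were tested, and these mostly repeated the direction of the drug effects. With epirubicin, 19 of the 28 rose in N epi against N and 23 in H epi against H, and 0 fell in either at an adjusted p under 0.05. With paclitaxel, 5 fell and 0 rose in N tax against N, and 8 fell and 1 rose in H tax against H. NDUFS1 had 2 dimmer probe sets that fell with paclitaxel where its brightest one did not: the first fell by 0.62 in H tax against H and by 1.11 in N tax against N, and the other fell by 0.64 and fell by 0.85. NDUFB2 rose with epirubicin on its second-brightest probe set (0.46 in H epi against H and 0.52 in N epi against N) and missed the threshold on its brightest probe set. The dimmer probe set of COX7B changed by -0.92 with paclitaxel under hypoxia and by -1.42 under normoxia, both past the test. For SDHC, 4 of its 5 further probe sets rose with epirubicin under both oxygen levels, while the other had changes of 0.12 and -0.01. For COX4I1 the dim probe set fell by 0.64 in H against N (adjusted p = 0.0293) and rose by 0.79 in H tax against H, whereas the 2 bright ones had changes of 0.05 and 0.04 in H against N and of -0.24 and -0.27 in H tax against H. In H epi against H its 3 probe sets rose alike in sign, the dim one by 1.23. For NDUFB8 a further probe set was at -0.19 in N epi against N, where the one used rose by 0.35, and for NDUFB2 one was at 0.25 in H tax against H, where the one used fell by 0.67, and neither further set passed the test. The second probe set of NDUFB7 was dim, rose by 0.98 in H epi against H and had changes of -0.003 in H tax against H and 0 in N tax against N. Of the 41 probe sets used for the members, 16 have the suffix of sets that match several transcripts of a gene and 4 that of sets that may match other genes.

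The lists below stand beside all genes, of which 29.5% rose in H epi against H and 24.2% in N epi against N. With paclitaxel, 18.1% of all genes fell in H tax against H and 15% in N tax against N. Of 13 further subunits of the chain, 10 rose in H epi against H and 9 in N epi against N. Of the same 13, 5 fell in H tax against H and 4 in N tax against N. Among them NDUFA7 rose by 1.05 and 1.13 and NDUFV3 by 1.28 and 0.93 with epirubicin, and NDUFA13 fell by 0.73 and 0.55 with paclitaxel. NDUFV3 and CYCS, the electron carrier cytochrome c, also fell in H against N, by 0.65 and 0.37. Of 15 ATP synthase subunits and regulators, 9 rose in H epi against H and 10 in N epi against N, and 6 fell in H tax against H and 5 in N tax against N. ATP5F1D, of the central stalk, rose by 1.23 and 1.07 with epirubicin, ATP5MC1, of the membrane ring, rose by 1.16 and 0.83 with epirubicin and fell by 0.90 and 0.75 with paclitaxel, and ATP5F1A, the catalytic-head alpha subunit, fell by 0.57 and 0.60 with paclitaxel. Of 14 genes of the citric acid cycle and its entry, 11 rose in H epi against H and 8 in N epi against N, and 5 fell in H tax against H and 4 in N tax against N. Here IDH3A, of the NAD-linked isocitrate dehydrogenase, rose by 1.69 and 0.94 with epirubicin, SUCLA2 of succinyl-CoA synthetase fell by 1.05 and 0.97 with paclitaxel, and DLD, the shared dihydrolipoyl dehydrogenase, fell by 0.96 and 0.79.

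The alternative isoforms were mostly dim. COX6A2, COX6B2, COX7A1 and COX8C lay below the presence threshold, and NDUFA4 and NDUFA4L2 were not analysed here. COX7A2L, an assembly factor of supercomplexes related to COX7A2, was the measured isoform that rose with both drugs: it had 12.43 and 12.54 on the H epi arrays, 12.20 and 12.21 on the H tax arrays and 11.67 and 11.78 on the H arrays. Its changes were 0.76 (adjusted p = 0.000396) with epirubicin and 0.48 (adjusted p = 0.0111) with paclitaxel under hypoxia, and 0.67 and 0.38 under normoxia. COX7B2 rose by 1.37 and 1.05 with epirubicin, and COX4I2 rose by 0.47 in H epi against H.

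Of 41 assembly factors, 29 rose and 6 fell in H epi against H, 22 rose and 6 fell in N epi against N, and 6 rose and 5 fell in H tax against H. In N tax against N, 0 rose (3 at an unadjusted p under 0.05) and 5 fell (12.2%, beside 15% of all genes). In H against N, 0 rose (1 unadjusted) and 6 fell (14.6%, beside 5.75%). In H tax against H, 14.6% rose and 12.2% fell, beside 13.3% and 18.1% of all genes. With epirubicin 70.7% (hypoxia) and 53.7% (normoxia) rose, beside 29.5% and 24.2%. In each, 14.6% fell, beside 36.2% (hypoxia) and 30.8% (normoxia) of all genes. SCO2, a copper chaperone of complex IV, had 4.78 and 3.77 on the H epi arrays, against 9.10 and 9.23 on the H arrays, and 5.70 and 7.70 on the N epi arrays, against 9.98 and 9.93 on the N arrays, with changes of -4.89 and -3.25. SDHAF1, which helps to mature the iron-sulfur subunit of complex II, changed by -2.12 and -2.43 with epirubicin, and COA7 by -1.67 and -2.70. COX18, which inserts a mitochondrially encoded subunit of complex IV, changed by -1.14 and -1.31 with paclitaxel, and NDUFAF4, of complex I, fell by 1.30 in H against N. Of 69 mitochondrial ribosomal proteins, 38 rose and 12 fell in H epi against H, 33 rose and 13 fell in N epi against N, and 0 rose (0 unadjusted) and 13 fell in H against N, with MRPL34 (-1.01) and MRPS12 (-0.91) among the last. With paclitaxel 11 rose and 7 fell in H tax against H, and 1 rose and 8 fell in N tax against N. Those that fell were 10.1% and 11.6%, beside 18.1% and 15% of all genes. Those that rose were 15.9% and 1.45%, beside 13.3% and 8.92%. With epirubicin 55.1% (hypoxia) and 47.8% (normoxia) rose, beside 29.5% and 24.2%, and 17.4% and 18.8% fell, beside 36.2% and 30.8%. The 13 that fell in H against N were 18.8%, beside 5.75% of all genes.

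Of 15 nuclear regulators of mitochondrial genes, 2 rose and 6 fell in H epi against H, 2 rose and 9 fell in N epi against N, and 1 rose and 3 fell in H against N. With paclitaxel, 3 rose and 0 fell in H tax against H (0 lower unadjusted). In N tax against N, 1 rose and 0 fell (1 lower unadjusted). Those that rose were 20% and 6.67%, beside 13.3% and 8.92% of all genes. The regulators that fell with epirubicin were 40% (hypoxia) and 60% (normoxia), beside 36.2% and 30.8% of all genes. In each, 13.3% rose, beside 29.5% and 24.2%. In H against N, 6.67% rose and 20% fell, beside 4.26% and 5.75% of all genes. NRF1 had 2.90 and 2.33 on the H epi arrays, against 6.28 and 6.56 on the H arrays, and 2.88 and 2.90 on the N epi arrays, against 6.78 and 6.97 on the N arrays. All 4 epirubicin arrays were below the presence threshold, so NRF1 was at least 9.66-fold lower under hypoxia and at least 13.3-fold lower under normoxia (adjusted p = 7.81e-06 and 1.47e-05). GABPB1, a partner of the ETS factor GABPA, had 4.21 and 3.50 on the H epi arrays, against 6.99 and 7.80 on the H arrays, and 5.20 and 6.21 on the N epi arrays, against 8.42 and 8.47 on the N arrays, with changes of -3.54 and -2.74, while GABPA itself lay between 6.01 and 6.33 on all 12 arrays. PPRC1, a coactivator of these factors, fell by 3.06 in N epi against N, and POLG2, of the mitochondrial DNA polymerase, fell by 2.99 in H epi against H. TFAM, which packs and transcribes mitochondrial DNA, had 11.12 and 11.12 on the H epi arrays and 11.09 and 11.12 on the N epi arrays, against 9.58 and 9.84 on the H arrays and 10.19 and 10.28 on the N arrays, rising by 1.41 and 0.87. LONP1 rose with paclitaxel, by 0.59 under hypoxia and 0.89 under normoxia, and PPARGC1A, a coactivator of mitochondrial biogenesis, lay near the presence threshold on all 12 arrays, between 2.94 and 4.06.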

How the data were processed

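RNA from MDA-MB-231 cells was measured on 18 Affymetrix HG-U133 Plus 2.0 arrays. The authors computed GC-RMA signals and deposited them as log2 values, 1 per probe set, with the version of the software not given in the sources used here. The study's methods describe redefined probe sets, whereas the deposited table carries the manufacturer's names, which were used here. Of 54613 probe sets without controls, 41091 carry 1 gene symbol in the platform's table, 1801 carry several and 11721 are not listed. GC-RMA pulls dim probes to a common floor, so changes of dim probe sets are less certain than those of bright ones.

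Probe sets entered the test if both arrays of 1 or more conditions had a linear signal above 8.84 (24151 probe sets, 11193 genes, each read from its brightest probe set). One limma model (limma 3.58.1, R 4.3.3) was fitted to 12 arrays of 6 conditions with 6 residual degrees of freedom, with two-sided moderated tests, p-values adjusted by the Benjamini-Hochberg method over every probe set in the fit and a threshold of 0.05. The 3 differences between hypoxia effects were contrasts of the same fit. The 6 arrays with conflicting labels entered alternatives alone. The alternatives also covered normalization, the presence filter, the variance model, the probe sets used, a replicate block, the samples fitted and each array left out. For arrays, the number per condition limits the precision. The script was tested on simulated data.

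Members and gene lists were chosen with earlier results of these data known. Arrays are given for the member with the largest rise and the largest fall of each complex past the test in each comparison, with no overlap of the arrays, and for all measured subunits of complex II. Up to 3 genes per other list with the largest changes past the test were named, with COX4I2, LONP1, PPARGC1A, NRF1 and TFAM, and any other gene given by name was chosen after its values were seen. Figures were drawn with matplotlib 3.10.9.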

Additional observations from a re-analysis of the deposited data

Results flagged for a closer look

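Hypoxia had a different effect with epirubicin than without drug for 2 genes around the chain, by the test of the difference itself. Both were chosen after their values were seen. They were 1 of 14 genes of the citric acid cycle and its entry (7.14%) and 1 of 41 assembly factors (2.44%). The other mitochondrial lists held 0, and over all genes 1.56% were higher and 2.52% lower in this test. With 1 gene in each of 2 lists, these shares are no result about the lists, and both adjusted p-values lay near the threshold. IDH3A, of the NAD-linked isocitrate dehydrogenase, had 10.34 and 10.18 on the H epi arrays, against 10.23 and 10.08 on the N epi arrays, and 8.49 and 8.65 on the H arrays, against 9.17 and 9.25 on the N arrays. The hypoxia effect was 0.10 with epirubicin and -0.64 without drug, a difference of 0.75 (limma, adjusted p = 0.044). TTC19, an assembly factor of complex III, had 11.78 and 11.43 on the H epi arrays, against 11.35 and 11.27 on the N epi arrays, and 10.28 and 10.05 on the H arrays, against 10.79 and 10.85 on the N arrays, and its difference was 0.95 (adjusted p = 0.0485). With 2 arrays per condition no array was tested as an outlier.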

How the results depend on the processing

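Counts below are members past an adjusted p under 0.05 of 41, with either sign. The labels of the 6 arrays in conflict moved the counts most. Added by title, they gave 19 in N tax against N (6 of the 7 among them), 2 in H against N and 1 for the difference of hypoxia effects with epirubicin against without drug. By title, the calls over all genes in H against N went from 477 to 833 higher and from 644 to 1689 lower. Added by source name, these arrays gave 0 in N tax against N, H tax against H, N epi against N and H epi against H, where 0 of all genes were called either. Quantile normalization gave 15 in N epi against N and 17 in H epi against H, where the share higher was near that of all genes. Median centring gave 4 in N tax against N and 7 in H tax against H. It moved the median of all genes to 0.39 in N epi against N and 0.51 in H epi against H, and quantile normalization moved it to 0.10 and 0.12. Of all genes called, 66.1% were higher in N epi against N and 66% in H epi against H with centring, beside 44% and 44.9% in the values as reported. A trended and robust variance gave 16 in N tax against N and 1 in H against N, fitting a comparison's own conditions alone gave 6 in H tax against H, and probe sets without a shared-match suffix (37 members) gave 1 in H against N and 1 for the difference with epirubicin against without drug, COX4I1 in both. Where no value above shows it, the cause was not tested.

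Leaving out 1 array at a time gave 2 to 9 in N tax against N, 8 to 15 in H tax against H, 12 to 32 in N epi against N and 21 to 29 in H epi against H, and 0 to 0 in the 3 hypoxia comparisons and the 3 differences. The replicate block gave 6 in N tax against N, 13 in H tax against H, 30 in N epi against N, 29 in H epi against H and 0 in the others. Same-numbered arrays deviated together with correlations from -0.184 to 0.302, so the numbers were not taken to pair them, and under the replicate block SDHA in N epi against N missed the threshold (-0.32, adjusted p = 0.0659).

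Some genes turned sign. With centring SDHA was at 0.10 in H epi against H and 0.0831 in N epi against N. With those 6 arrays by source name NDUFB7 was at 0.0414 in H tax against H and 0.15 in N tax against N, and SDHC at 0.0569 in H tax against H. With probe sets without a shared-match suffix COX4I1 was at -0.065 in N epi against N and NDUFB7 at 0 in N tax against N. Signal near the floor limits the dim probe sets.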

Other observations

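The 6 arrays whose title and source name disagree are given by title and enter no condition. The median member lay 0.42 above the mean of the N arrays on the array titled H epi and 0.44 above it on the one titled N epi, on the log2 scale. It lay at -0.17 on the array titled H tax, -0.20 on the one titled N tax, -0.14 on the one titled H and 0.01 on the one titled N.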
